A study of Rattus norvegicus with 16 samples.

Results

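Zbtb46, Zeb2, Zeb1, Id2, Nfil3, Klf4, Spi1, Bcl6, Prdm1 and Relb are transcription factors tied to the lineages of dendritic cells (DCs), and their transcripts were followed through 4 myeloid populations of the rat thymus and spleen. The members were taken by gene symbol: each of the 10 had 1 transcript cluster (the array's unit for a gene) among the 23188 clusters measured, so no choice between rows was needed. The cells came from male Lewis rats of unstated age with no treatment or engineered allele in the labels, and each population was profiled in each organ on 2 Clariom S arrays (16 arrays, 8 groups). CD103- cells were sorted as CD103-CD45R-CD172a+, cDC2 as CD103+CD172a+, cDC1 as CD103+CD172a-, and macrophages as CD45R- cells bearing HIS36, the rat CD163 epitope. Before the sort, splenic DCs were enriched on an OptiPrep density gradient and thymic DCs with beads against MHC class II, while macrophages were taken with CD11b/c beads. Organ and isolation therefore cannot be told apart for the DC groups, nor can cell type and isolation between DCs and macrophages. The labels do not say whether the 2 arrays of a group came from separate animals, so p-values measure the spread between these arrays, which may be technical.

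Conventional DCs branch into cDC1, which take up dead cells and present antigen to CD8 T cells, and cDC2, which prime mainly CD4 T cells. In mouse progenitors the choice is governed by a circuit of repressors: NFIL3 lowers Zeb2, ZEB2 lowers Id2, and ID2 blocks the E proteins that favour plasmacytoid DCs. PU.1 (Spi1) is needed before that choice, ZBTB46 marks the conventional DC lineage apart from monocytes, KLF4 and RELB serve subsets of cDC2, and BCL6 and BLIMP-1 (Prdm1) oppose each other in lymphocytes and are also used by DCs. These roles are known mainly from mice, and whether rat thymic and splenic cells follow them is the setting for the values below.

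The sort markers went with the gates. Itgae, which encodes CD103, had a group mean of 6.02 in thymic and 7.93 in splenic CD103- cells, against 13.66 and 13.84 in thymic cDC2 and cDC1 and 13.27 and 14.48 in splenic cDC2 and cDC1. Sirpa (CD172a) was at 18.71 in thymic CD103- cells and 18.12 in thymic cDC2, against 9.06 in thymic cDC1. Cd163 was at 16.56 and 15.98 in thymic and splenic macrophages, but also at 11.34 in thymic cDC2. All values are log2 signals as deposited, and 5.73, the 95th percentile over 1296 olfactory receptor clusters, was taken as background. Of the 80 group means of the members, only that of Zbtb46 in thymic macrophages (5.58) lay below it. Markers of other cells also moved with the groups. The log2 of the summed signal of 7 neutrophil markers was at most 9.37 on any DC array, against 18.7 to 19.3 in thymic and 18.04 to 18.33 in splenic macrophages. The sum of 7 erythroid markers was at most 9.13 in the other 7 groups, against 18.1 in splenic macrophages. The sum of 8 monocyte markers was 19.77 to 19.87 in thymic CD103- cells, against 16.67 to 17.02 in thymic cDC2, and 19.67 to 19.74 in splenic CD103- cells, against 16.77 to 17.28 in splenic cDC2. That of 10 macrophage markers was 17.6 to 17.9 in thymic CD103- cells, against 14.69 to 15.01 in thymic cDC2, and 15.2 to 15.7 in splenic CD103- cells, against 14.80 to 14.97 in splenic cDC2. The sum of 9 B cell markers was 13.7 to 13.8 in thymic cDC1, against 11.8 in splenic cDC1, and 9.60 to 9.86 in thymic macrophages, against 12.8 to 13.3 in splenic ones. The sum of 9 T cell and thymocyte markers was 11.96 to 13.01 over the 4 thymic groups, against 10.11 to 11.03 over the splenic ones. The part of these cells in the results was not tested. In such bulk samples, fewer cells of a type and less RNA per cell cannot be told apart.

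The promoters of Zeb2, Prdm1 and Zeb1 are shown because Zeb2 and Prdm1 were highest in CD103- cells and Zeb1, the family partner of Zeb2, was lower there than in the CD103+ DCs. RefSeq's promoter windows on rat build GRCr8, 250 bases before to 50 after the annotated start, were matched by symbol for 8 of the 10 members. Capitals mark CAGGTG, the E-box core bound by ZEB proteins, searched on both strands as CAGGTG or CACCTG. The Zeb2 window lies at chr3:49754274-49754573 on the minus strand, the Prdm1 window at chr20:49564039-49564338 on the minus strand, and the Zeb1 window at chr17:56810604-56810903 on the minus strand.
Zeb2: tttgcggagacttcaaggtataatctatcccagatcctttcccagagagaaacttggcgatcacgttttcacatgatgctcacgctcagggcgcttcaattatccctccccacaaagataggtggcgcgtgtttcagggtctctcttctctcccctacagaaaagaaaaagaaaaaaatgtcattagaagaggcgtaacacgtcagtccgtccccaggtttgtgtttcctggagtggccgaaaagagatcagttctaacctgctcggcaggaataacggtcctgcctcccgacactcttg
Prdm1: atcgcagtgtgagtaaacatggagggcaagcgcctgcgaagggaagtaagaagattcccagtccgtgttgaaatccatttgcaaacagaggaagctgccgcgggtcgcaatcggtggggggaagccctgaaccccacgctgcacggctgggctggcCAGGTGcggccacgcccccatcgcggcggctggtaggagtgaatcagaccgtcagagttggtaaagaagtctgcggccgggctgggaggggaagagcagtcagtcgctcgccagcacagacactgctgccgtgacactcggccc
Zeb1: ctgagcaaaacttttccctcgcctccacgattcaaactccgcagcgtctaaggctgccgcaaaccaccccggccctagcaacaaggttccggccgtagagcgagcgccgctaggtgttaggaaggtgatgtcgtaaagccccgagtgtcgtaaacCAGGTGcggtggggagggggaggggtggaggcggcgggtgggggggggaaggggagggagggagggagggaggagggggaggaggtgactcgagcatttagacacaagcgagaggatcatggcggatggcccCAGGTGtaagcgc
The core occurred at 37 and -95 from the start in Zeb1 and at -94 in Prdm1, and not in the Zeb2 window. It is common: 18.8% of 33469 rat promoters of the same length hold it. GC content was 49% in Zeb2, 62.3% in Prdm1 and 63.7% in Zeb1, against a median of 51.7% over all promoters. These matches describe the letters of the windows and do not show binding.

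The 10 factors fell into distinct patterns across the 8 groups. Zeb2 and Prdm1 were highest in CD103- cells of both organs and lowest in cDC1. Zeb1 and Zbtb46 were highest in the CD103+ DCs, intermediate in CD103- cells and lowest in macrophages. Id2 was highest in cDC1 within each organ, Klf4 was lower in the thymus in every population, Relb stood highest in thymic cDC1, and Spi1 was much the same everywhere except in splenic macrophages. The span from the lowest to the highest of the 8 group means ran from 1.81 log2 units for Spi1 to 8.89 for Zeb2, with a median of 4.62 over the members, against 1.89 over the 14057 clusters that reached background in at least 1 group.

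**Figure D1:**
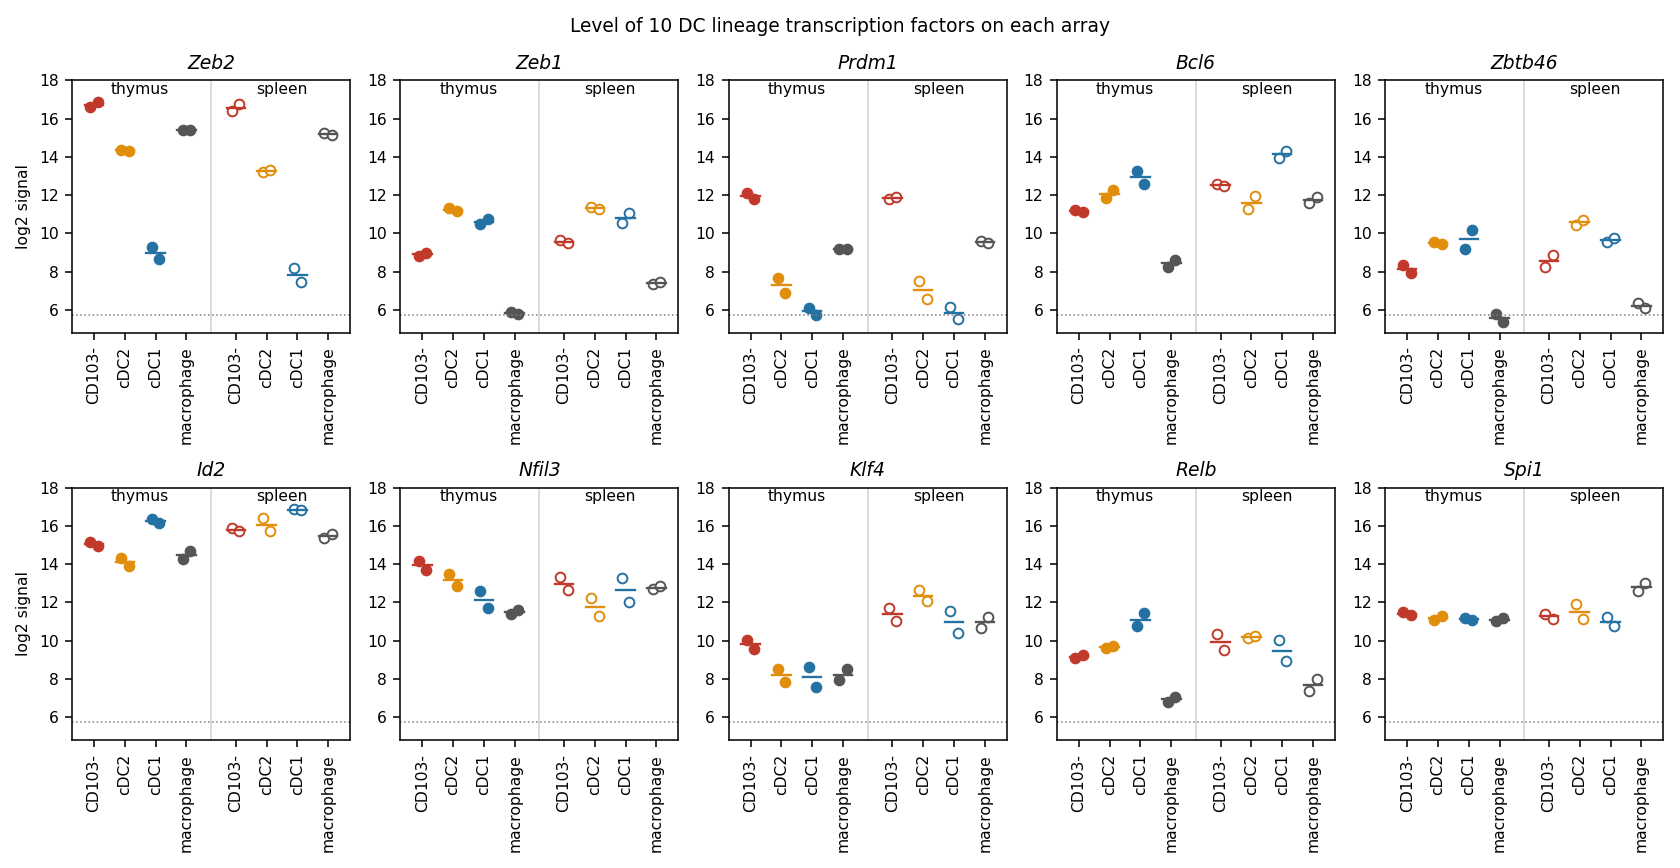
Log2 signal of each member on each array, with thymus (filled) left of spleen (open) and CD103-, cDC2, cDC1 and macrophages from left to right. Each point is 1 array, the bar is the mean of 2 arrays and the dotted line is the background of 5.73. Zeb2 sits between 16.38 and 16.85 on all 4 CD103- arrays and between 7.46 and 9.27 on all 4 cDC1 arrays.

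Zeb2, a zinc-finger repressor needed in mice for monocytes, plasmacytoid DCs and some cDC2, had the widest span of the set. It read 16.58 and 16.85 in thymic CD103- cells, 14.38 and 14.33 in thymic cDC2, 9.27 and 8.67 in thymic cDC1, and 15.38 and 15.39 in thymic macrophages. In the spleen it read 16.38 and 16.77 in CD103- cells, 13.20 and 13.33 in cDC2, 8.19 and 7.46 in cDC1, and 15.25 and 15.12 in macrophages. The order CD103-, macrophages, cDC2, cDC1 was the same in both organs, with no overlap between populations of an organ. Differences (log2, first minus second, ± SE) passed in all 12 within-organ comparisons by limma at an adjusted p under 0.05. CD103- cells exceeded cDC2 by 2.36 ± 0.26 in the thymus (adjusted p = 5.66e-06) and by 3.31 ± 0.26 in the spleen (adjusted p = 1.06e-07). cDC2 exceeded cDC1 by 5.38 ± 0.26 and 5.44 ± 0.26 in thymus and spleen (adjusted p = 8.97e-11 and 6.03e-11). Thymic cDC2 were above splenic cDC2 by 1.09 ± 0.26 (adjusted p = 0.00702), and thymic above splenic cDC1 by 1.15 ± 0.26 (adjusted p = 0.00601). Both organ calls were fragile: without replicate 1 of thymic cDC2 or of splenic cDC2 the first had an adjusted p of 0.0523 and 0.0564, and without replicate 1 of thymic cDC1 or replicate 2 of splenic cDC1 the second had 0.107 and 0.117, and 0.0681 with those groups fitted alone. Thymic cDC2 lay below thymic macrophages (-1.03 ± 0.26, adjusted p = 0.00341), but the difference missed the threshold after quantile normalization (-0.64, adjusted p = 0.0632).

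Zeb1, the other ZEB family repressor, was ordered otherwise. It read 8.84 and 9.0 in thymic CD103- cells, 11.31 and 11.16 in cDC2, 10.48 and 10.74 in cDC1, and 5.87 and 5.78 in macrophages. The splenic arrays gave 9.64 and 9.49 in CD103- cells, 11.36 and 11.27 in cDC2, 10.55 and 11.05 in cDC1, and 7.36 and 7.48 in macrophages. CD103- cells lay between the CD103+ DCs and the macrophages in both organs, without overlap. Zeb1 was lower in CD103- cells than in cDC2 with a difference of -2.31 ± 0.22 in the thymus (adjusted p = 8.17e-07) and with a difference of -1.75 ± 0.22 in the spleen (adjusted p = 2.22e-05). It was above macrophages by 3.10 ± 0.22 in thymic and 2.15 ± 0.22 in splenic CD103- cells (adjusted p = 3.38e-09 and 2.87e-07). The thymic macrophage mean, 5.825, lay just above background, which limits every difference from that group. The excess of cDC2 over cDC1 missed the threshold in the thymus (0.62 ± 0.22, adjusted p = 0.0692) and, at 0.52 ± 0.22, in the spleen (adjusted p = 0.136). Among the DCs of each organ, Zeb2 thus had its highest mean in CD103- cells and Zeb1 its lowest.

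Prdm1 encodes BLIMP-1, a zinc-finger repressor best known for driving plasma cell differentiation. It read 12.09 and 11.77 in thymic CD103- cells, 7.65 and 6.91 in cDC2, 6.09 and 5.76 in cDC1, and 9.18 and 9.16 in macrophages. In the spleen the arrays read 11.79 and 11.89 in CD103- cells, 7.49 and 6.55 in cDC2, 6.15 and 5.53 in cDC1, and 9.59 and 9.48 in macrophages. The cDC1 means, 5.92 and 5.84, lay just above background, and the CD103- arrays stood above every other array of the series. The excess over cDC2 was 4.65 ± 0.31 in the thymus (adjusted p = 1.47e-08) and 4.82 ± 0.31 in the spleen (adjusted p = 6.76e-09), and that over cDC1 was 6.0 ± 0.31 in both organs (adjusted p = 1.04e-10 and 9.07e-11). CD103- cells also exceeded macrophages, by 2.76 ± 0.31 (thymus) and 2.31 ± 0.31 (spleen) (adjusted p = 9.59e-07 and 7.70e-06). The smaller excess of cDC2 over cDC1 (1.36 and 1.18, adjusted p = 0.0049 and 0.0115) was lost in the thymus without replicate 1 of cDC2 (adjusted p = 0.111) or replicate 2 of cDC1 (0.0649), and in the spleen without replicate 1 of cDC2 (0.208), without replicate 2 of cDC1 (0.147) or with the arrays of those groups fitted alone (0.0678). No organ difference passed in any population (adjusted p between 0.568 and 0.926). Of 14 PRDM family genes measured, Prdm1 was the only one called higher in CD103- cells than in cDC2 in either organ, with 1 lower in each. Prdm4 was lower in the thymus (-0.66 ± 0.20, adjusted p = 0.0434), with -0.34 ± 0.20 in the spleen (adjusted p = 0.398), and Prdm16 was lower in the spleen (-1.50 ± 0.35, adjusted p = 0.00898), with a thymic value of -0.27 ± 0.35 (adjusted p = 0.78). The thymic Prdm16 means, 4.825 in CD103- cells and 5.09 in cDC2, lay below background, so a difference there was not measurable. Its splenic CD103- mean, 5.78, lay just above background. The log2 of the summed signal of 5 plasma cell markers was 14.55 to 14.69 in thymic CD103- cells, against 14.40 to 14.85 in thymic cDC2, and 13.59 to 14.19 in splenic CD103- cells, against 14.43 to 14.54 in splenic cDC2, a sum in which Irf4 had the highest signal of the 5 in these groups. Of these markers, Tnfrsf17 was below background in all 8 groups, while Xbp1 averaged 13.20 in thymic CD103- cells, against 11.89 in thymic cDC2, and 12.06 in splenic CD103- cells, against 10.73 in splenic cDC2. Irf4 went the other way, at 13.93 in thymic CD103- cells against 14.38 in thymic cDC2, and 13.39 against 14.36 in the spleen. The part of the plasma cell markers in the Prdm1 values was not tested.

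Bcl6, a BTB zinc-finger repressor, was called in 5 of the 6 tests of whether a difference between populations was unequal in the organs. These tests share groups and are not independent. Thymic arrays read 11.20 and 11.12 in CD103- cells, 11.86 and 12.29 in cDC2, 13.27 and 12.58 in cDC1, and 8.24 and 8.63 in macrophages. Splenic arrays read 12.58 and 12.50 in CD103- cells, 11.29 and 11.93 in cDC2, 13.95 and 14.30 in cDC1, and 11.57 and 11.88 in macrophages. cDC1 were highest in both organs, thymic macrophages were far below all other groups, and CD103- cells lay below cDC2 in the thymus and above them in the spleen. Relative to cDC1, CD103- cells were lower with a thymic difference of -1.77 ± 0.28 and a splenic one of -1.58 ± 0.28 (adjusted p = 0.000115 and 0.000369). Relative to cDC2, the thymic difference was -0.92 ± 0.28 (adjusted p = 0.0437) and the splenic one 0.93 ± 0.28 (adjusted p = 0.0438). The thymic value had an adjusted p of 0.0517 to 0.313 when either array of thymic cDC2, thymic CD103- cells, splenic CD103- cells or splenic macrophages was left out. The splenic one had 0.0526 to 0.36 without replicate 1 of splenic cDC2 or without either array of thymic CD103- cells, splenic CD103- cells or splenic macrophages, 0.056 with array weights and 0.0857 with those groups fitted alone. The difference between the organs was itself tested: the interaction was -1.85 ± 0.39 (adjusted p = 0.0101), and -1.63 without replicate 2 of thymic cDC2 (adjusted p = 0.0654) or -1.52 without replicate 1 of splenic cDC2 (adjusted p = 0.0652). Thymic macrophages were below splenic ones with a difference of -3.29 ± 0.28 (adjusted p = 1.52e-07). Splenic macrophages also had more of the erythroid and B cell marker signal described above, whose part was not tested.

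Zbtb46, whose product in mice marks conventional DCs and their precursors among myeloid cells, was above macrophages in every DC group. Thymic arrays read 8.34 and 7.94 in CD103- cells, 9.54 and 9.47 in cDC2, 9.20 and 10.17 in cDC1, and 5.80 and 5.36 in macrophages. Splenic arrays read 8.25 and 8.85 in CD103- cells, 10.46 and 10.68 in cDC2, 9.54 and 9.75 in cDC1, and 6.34 and 6.12 in macrophages. The CD103- arrays lay below all CD103+ DC arrays and above all macrophage arrays. Because the thymic macrophage mean was below background, the excess there is a bound: at least 2.41 log2 units in CD103- cells, 3.77 in cDC2 and 3.95 in cDC1. In the spleen the excess over macrophages was 2.32 ± 0.30, 4.34 ± 0.30 and 3.42 ± 0.30 (adjusted p = 4.54e-06, 1.44e-09 and 2.94e-08). CD103- cells were below cDC2 with a difference of -1.36 ± 0.30 in the thymus (adjusted p = 0.00461, but 0.0729 without replicate 2 of thymic CD103- cells) and with a difference of -2.02 ± 0.30 in the spleen (adjusted p = 0.000137). They were below cDC1 with a difference of -1.54 ± 0.30 in the thymus (adjusted p = 0.00081) and with a difference of -1.09 ± 0.30 in the spleen (adjusted p = 0.0131, but 0.0928 without replicate 2 of splenic cDC1 and 0.172 without replicate 1 of splenic CD103- cells).

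Id2 encodes a helix-loop-helix protein that sequesters E proteins and is required for cDC1 in mice. Thymic arrays read 15.17 and 14.97 in CD103- cells, 14.31 and 13.92 in cDC2, 16.34 and 16.15 in cDC1, and 14.29 and 14.67 in macrophages. Splenic arrays read 15.87 and 15.73 in CD103- cells, 16.42 and 15.73 in cDC2, 16.88 and 16.81 in cDC1, and 15.37 and 15.57 in macrophages. cDC1 arrays were the highest within each organ, and the signal was high in all 8 groups. In the thymus CD103- cells were below cDC1 with a difference of -1.18 ± 0.25 (adjusted p = 0.00197) and cDC2 were below them with a difference of -2.13 ± 0.25 (adjusted p = 5.41e-06). In the spleen the same differences were -1.04 ± 0.25 (adjusted p = 0.0053) and -0.77 ± 0.25 (adjusted p = 0.0421). The splenic cDC2 call ended without either array of splenic cDC1 (0.156 and 0.113), either array of splenic macrophages (0.0515 for each) or replicate 2 of splenic cDC2 (0.438), and with array weights (0.0609) or those groups fitted alone (0.137). Thymic cDC2 were below splenic cDC2 with a difference of -1.96 ± 0.25 (adjusted p = 1.53e-05).
Id2 and its E protein targets did not move as a block. Of 7 E and Id protein genes, Tcf4 (E2-2, the E protein that drives plasmacytoid DCs) was above cDC1 in cDC2 by 2.23 ± 0.23 (thymus) and 3.71 ± 0.23 (spleen) (adjusted p = 1.31e-06 and 1.50e-09), and above cDC2 in CD103- cells by 1.00 ± 0.23 and 1.08 ± 0.23 (adjusted p = 0.00766 and 0.00449). It was the only member of the list called higher in cDC2 than cDC1 in either organ (6.75% of all clusters in the thymus, 7.86% in the spleen). Id2 was lower in both (6.93% and 8.21%). Tcf12 was lower in the spleen (-1.46 ± 0.24), with -0.65 ± 0.24 in the thymus (adjusted p = 0.0896). The summed signal of 5 plasmacytoid DC markers, Tcf4 among them, was 15.04 to 15.59 in thymic CD103- cells, against 13.35 to 13.76 in thymic cDC2. In the spleen it was 15.63 to 16.03 in CD103- cells, against 13.50 to 13.67 in cDC2. The sum was highest in macrophages, at 16.49 to 16.69 in the thymus and 16.18 to 16.27 in the spleen. Tcf4 was at 10.87 and 11.29 in thymic and splenic macrophages. Bst2 had the highest signal of the 5 in macrophages and in CD103- cells (14.73 in thymic and 15.30 in splenic ones). Siglech was at 9.01 in splenic CD103- cells and 7.26 in splenic cDC2 and below background in the other groups. Ccr9 went the other way, at 6.73 in thymic CD103- cells against 7.15 in thymic cDC2, and 8.035 against 9.16 in the spleen. Spib was at 6.80 in thymic CD103- cells against 6.73 in thymic cDC2, and 8.845 against 8.44 in the spleen. The part of plasmacytoid DCs was not tested.

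Nfil3, a basic leucine zipper repressor that acts at the start of the mouse cDC1 circuit, was not highest in cDC1. Thymic arrays read 14.18 and 13.70 in CD103- cells, 13.49 and 12.88 in cDC2, 12.60 and 11.71 in cDC1, and 11.40 and 11.60 in macrophages. Splenic arrays read 13.31 and 12.66 in CD103- cells, 12.25 and 11.29 in cDC2, 13.27 and 12.02 in cDC1, and 12.68 and 12.86 in macrophages. Neighbouring groups overlapped at 6 of the 7 steps of the order from high to low, and the 2 arrays of splenic cDC1 were 1.25 apart. Replicate 1 read higher than replicate 2 in every DC group and lower in both macrophage groups. Thymic CD103- cells were above thymic cDC1 by 1.79 ± 0.40 (adjusted p = 0.00342), which missed without replicate 2 of thymic cDC1 (1.34, adjusted p = 0.0792) or replicate 1 of thymic CD103- cells (1.55, adjusted p = 0.0513). They were above thymic macrophages by 2.44 ± 0.40 (adjusted p = 7.93e-05). None of the 6 splenic comparisons was called by limma (lowest adjusted p = 0.0547), and 3 of them had an unadjusted p under 0.05. The lowest, cDC2 minus macrophages, was called with array weights (0.0447), with those groups fitted alone (0.0221) and with only clusters above the median mean (0.0415). With replicate number fitted as a block, a pairing the labels do not give, it was called too (0.0134), as was CD103- minus cDC2 (0.0157). Both Nfil3 and Zeb2 had their highest group mean in thymic CD103- cells, although for Zeb2 the thymic and splenic CD103- arrays overlapped. For Nfil3 the main limma fit did not call the excess over thymic cDC2 (0.755 ± 0.40, adjusted p = 0.315). Nor did it call that over splenic CD103- cells (0.955 ± 0.40, adjusted p = 0.151).

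Spi1 encodes PU.1, the ETS factor required for myeloid and DC development. Thymic arrays read 11.48 and 11.36 in CD103- cells, 11.09 and 11.32 in cDC2, 11.19 and 11.06 in cDC1, and 11.02 and 11.19 in macrophages. Splenic arrays read 11.40 and 11.15 in CD103- cells, 11.90 and 11.15 in cDC2, 11.24 and 10.76 in cDC1, and 12.61 and 13.02 in macrophages. Only the splenic macrophage arrays stood apart. The splenic DC groups were below them with a difference of -1.54 ± 0.26, -1.29 ± 0.26 and -1.81 ± 0.26 for CD103- cells, cDC2 and cDC1 (adjusted p = 0.000106, 0.000524 and 1.50e-05), and thymic macrophages were below them with a difference of -1.71 ± 0.26 (adjusted p = 0.000136). The part of the erythroid and B cell markers, which were likewise higher in splenic macrophages, was not tested. No difference among the DC groups was called, and the 95% interval of thymic CD103- minus cDC2 ran from -0.34 to 0.77.

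Against the DCs of the same organ, CD103- cells thus carried more Zeb2 and Prdm1 and less Zeb1 and Zbtb46 than cDC2 in both organs. Of the 10 members, 4 were called higher in thymic CD103- cells than in cDC2, as were 5.34% of all clusters, and 3 were called lower, as were 4.91%. The spleen gave 3 higher (4.81% of clusters) and 2 lower (4.21%). Of the 14057 clusters that reached background, 16.4% were called in either direction by the thymic comparison and 14.4% by the splenic one. The thymic count fell to 4 without replicate 2 of thymic cDC2 or without either array of thymic CD103- cells. Besides the genes above, Id2 (0.95 ± 0.25, adjusted p = 0.0171) and Klf4 (1.61 ± 0.41, adjusted p = 0.0136) were higher in thymic CD103- cells. The Id2 call ended without replicate 2 of thymic cDC2 (adjusted p = 0.189) or replicate 1 or 2 of thymic CD103- cells (0.132 and 0.0543), and the Klf4 call ended without replicate 2 of thymic cDC2 (0.17) or replicate 1 of thymic CD103- cells (0.138). Against cDC1, thymic CD103- cells had 4 members higher (8.66% of clusters) and 5 lower (9.09%), and splenic ones had 2 higher (8.63%) and 4 lower (9.47%).

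**Figure D2:**
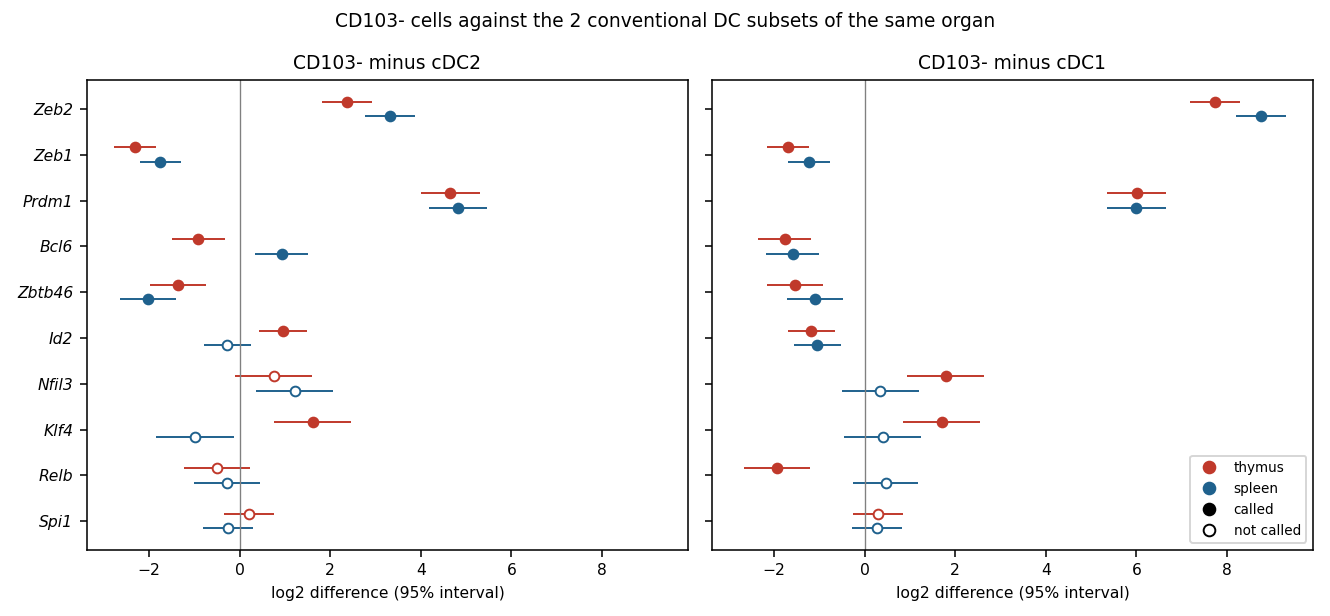
Log2 difference of CD103- cells minus cDC2 (left panel) and minus cDC1 (right panel) for each member in thymus and spleen, with 95% intervals and filled points where the adjusted p was under 0.05. Zeb2 and Prdm1 lie far to the right in both organs (2.36 to 8.75), while Zeb1 and Zbtb46 lie left of 0 in all 4 comparisons.

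Against macrophages 7 or 8 of the 10 members were called in each DC group, and so were 57.8% to 65% of the clusters that reached background. In thymic CD103- cells 8 were higher (19.5% of all clusters) and none lower (18.4%), and in splenic ones 6 were higher (21.1%) and 1 was lower (19.1%). Thymic cDC2 had 5 higher (22.6%) and 2 lower (20.3%), and splenic cDC2 had 4 higher (22.8%) and 3 lower (19.8%). Thymic cDC1 had 5 higher (23.3%) and 2 lower (20.4%), and splenic cDC1 had 5 higher (23.5%) and 3 lower (19.7%). Zeb1, Zbtb46 and Relb were above macrophages in all 6 of these comparisons, and Zeb2 and Prdm1 were above them in CD103- cells but below them in cDC2 and cDC1. Between the CD103+ subsets, thymic cDC2 had 2 members higher (6.75% of clusters) and 2 lower (6.93%) than thymic cDC1, and splenic cDC2 had 4 higher (7.86%) and 2 lower (8.21%) than splenic cDC1. The thymic count fell to 2 without replicate 1 of thymic cDC2, and the splenic one to 3 without replicate 2 of splenic cDC1 or replicate 1 of splenic cDC2.

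**Figure D3:**
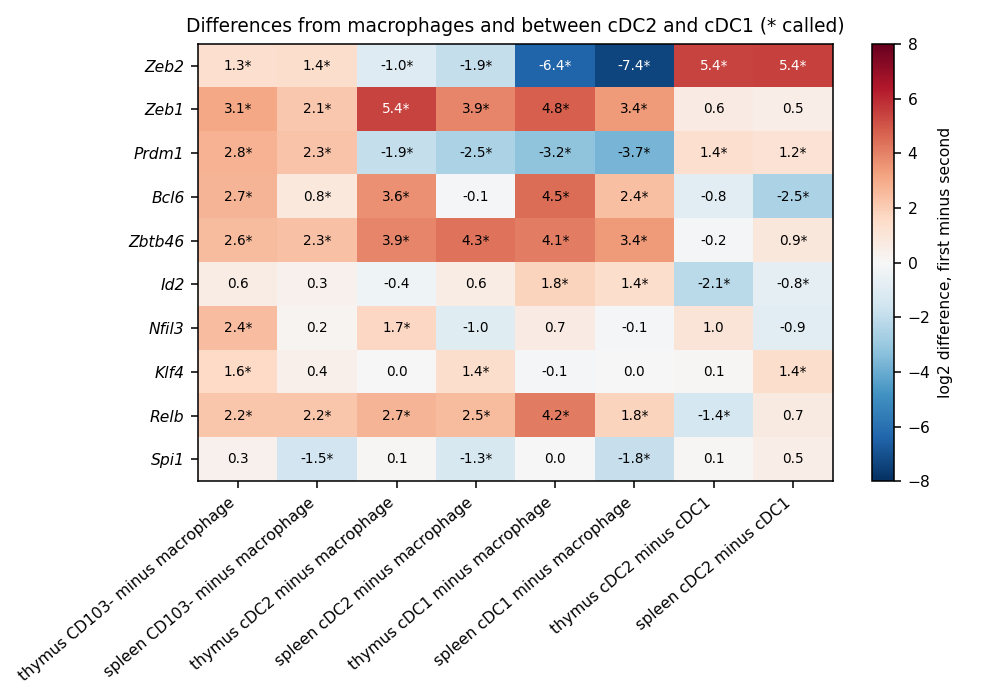
Log2 differences of each member between each DC population and macrophages and between cDC2 and cDC1, with thymus left of spleen in each pair of columns, and a star where the adjusted p was under 0.05. For Zbtb46 against thymic macrophages the printed values rest on a group below background, and the bounds are 2.41, 3.77 and 3.95.

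Klf4, a zinc-finger factor needed in mice for a cDC2 subset and for monocyte differentiation, was lower in the thymus in all 4 populations. Thymic arrays read 10.06 and 9.57 in CD103- cells, 8.54 and 7.86 in cDC2, 8.63 and 7.6 in cDC1, and 7.93 and 8.50 in macrophages. Splenic arrays read 11.70 and 11.05 in CD103- cells, 12.65 and 12.07 in cDC2, 11.53 and 10.42 in cDC1, and 10.66 and 11.26 in macrophages. No thymic array of a population reached the splenic arrays of the same population. The difference, thymus minus spleen, was -1.56 ± 0.41 in CD103- cells (adjusted p = 0.0152), -4.16 ± 0.41 in cDC2 (adjusted p = 6.92e-07), -2.86 ± 0.41 in cDC1 (adjusted p = 7.07e-05) and -2.74 ± 0.41 in macrophages (adjusted p = 9.44e-05). The CD103- call ended without replicate 2 of thymic CD103- cells (-1.31, adjusted p = 0.15) or replicate 1 of splenic CD103- cells (-1.24, adjusted p = 0.157). CD103- cells against cDC2 differed between the organs by 2.60 ± 0.57 (adjusted p = 0.013), and this ended without replicate 2 of thymic cDC2 (0.0794), replicate 1 of splenic cDC2 (0.07), replicate 1 of thymic CD103- cells (0.0683) or replicate 2 of splenic CD103- cells (0.0647).
Of 17 KLF genes, Klf4 included, 1 was higher and 3 lower in thymic than in splenic CD103- cells (7.12% and 5.27% of all clusters), 4 were higher and 5 lower in cDC2 (7.99% and 6.6%), 2 were higher and 5 lower in cDC1 (6.69% and 5.38%), and none was higher and 6 were lower in macrophages (6.21% and 7.53%). Klf2, which restrains activation and migration of several leukocytes, was lower with a difference of -1.94 ± 0.32 in cDC2 and -3.47 ± 0.32 in cDC1, and Klf3 with a difference of -3.17 ± 0.30 and -2.92 ± 0.30. Klf7 was higher by 4.10 ± 0.27 in cDC2 and 2.01 ± 0.27 in cDC1. Of 15 immediate early and dissociation genes, set against the same shares of all clusters, 2 were higher and 3 lower in thymic than in splenic CD103- cells, 3 higher and 9 lower in cDC2, 2 higher and 7 lower in cDC1, and 2 higher and 6 lower in macrophages. Fosb was lower with a difference of -3.63 ± 0.26 in cDC2 and -2.57 ± 0.26 in cDC1. The part of these genes, and of the different enrichment of the cells, in the Klf4 difference was not tested.

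Relb encodes the NF-kB subunit activated through the noncanonical pathway, in which receptors of the TNF family release the kinase NIK (Map3k14) from TRAF3 and NIK triggers the processing of p100 (Nfkb2). Thymic arrays read 9.08 and 9.27 in CD103- cells, 9.64 and 9.71 in cDC2, 10.75 and 11.46 in cDC1, and 6.82 and 7.05 in macrophages. Splenic arrays read 10.37 and 9.5 in CD103- cells, 10.15 and 10.26 in cDC2, 10.02 and 8.93 in cDC1, and 7.40 and 7.98 in macrophages. Both thymic cDC1 arrays were above every other array, and both macrophage groups were below every DC array. Thymic cDC1 exceeded splenic cDC1 by 1.63 ± 0.35 (adjusted p = 0.00326), with adjusted p = 0.074 without replicate 2 of thymic cDC1 and 0.0773 without replicate 2 of splenic cDC1. Thymic CD103- cells were below thymic cDC1 with a difference of -1.93 ± 0.35 (adjusted p = 0.000429), whereas in the spleen the difference was 0.46 ± 0.35 (adjusted p = 0.455), and the interaction was -2.39 ± 0.49 (adjusted p = 0.00388).
Of 13 noncanonical NF-kB genes, Relb included, 9 were higher in thymic than in splenic cDC1 and none lower (6.69% and 5.38% of all clusters), with a list median of 1.18 against -0.03 over all clusters. The count was 6 without replicate 2 of thymic cDC1 and 7 without replicate 1 of thymic cDC1 or replicate 2 of splenic cDC1. Tnfrsf11a (RANK, a receptor of the pathway) was higher by 4.09 ± 0.44 (adjusted p = 2.99e-06), Tnfrsf1b (TNF receptor 2) by 2.56 ± 0.35 (adjusted p = 5.42e-05), Cd40 by 2.32 ± 0.32 (adjusted p = 4.66e-05) and Traf3, which restrains NIK, by 1.90 ± 0.26 (adjusted p = 5.59e-05). The Tnfrsf11a mean was higher in the thymus in the other populations too. It was 11.445 against 8.045 in cDC2, 10.01 against 8.44 in CD103- cells and 8.615 against 7.385 in macrophages. In CD103- cells the same list gave 1 higher and 2 lower (7.12% and 5.27% of all clusters), and in cDC2 1 higher and 1 lower (7.99% and 6.6%). In macrophages none was higher and 5 were lower (6.21% and 7.53%). Within the thymus none was higher and 6 were lower in cDC2 than in cDC1 (6.75% and 6.93%). Within the spleen 5 were higher and none lower (7.86% and 8.21%). The thymic count was 2 lower without replicate 2 of thymic cDC1 or replicate 1 of thymic cDC2. The splenic one was 1 higher and 1 lower without replicate 2 of splenic cDC1, and 3 higher without replicate 1 of splenic cDC2. The 9 B cell markers were also higher in thymic cDC1, as given above, and several genes of the list, such as Cd40 and Tnfrsf13c, are used by B cells. Their part was not tested.

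**Figure D4:**
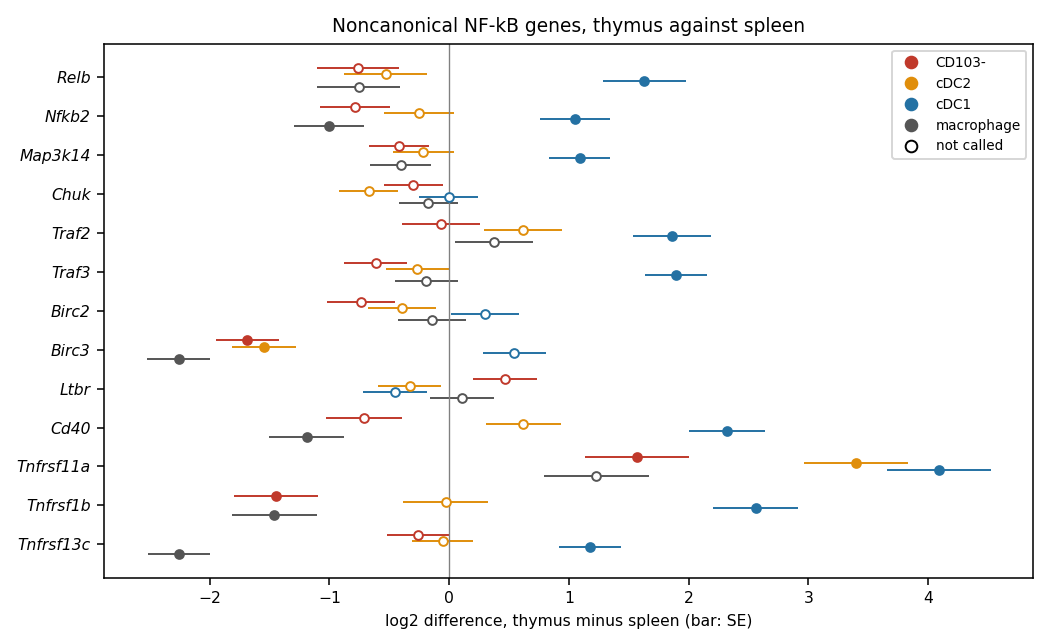
Log2 difference, thymus minus spleen, with its SE for the 13 noncanonical NF-kB genes in each population, with filled points where the adjusted p was under 0.05. In cDC1, 9 genes are called to the right of 0, from Nfkb2 at 1.06 to Tnfrsf11a at 4.09.

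Between the organs, none of the members was higher (7.12% of all clusters) and 2 were lower (5.27%) in thymic than in splenic CD103- cells. In cDC2, 2 were higher (7.99%) and 3 lower (6.6%) in the thymus. For cDC1 the thymus had 2 higher (6.69%) and 2 lower (5.38%), and for macrophages none higher (6.21%) and 6 lower (7.53%). The CD103- count was 1 without replicate 2 of thymic or replicate 1 of splenic CD103- cells. The cDC2 count was 2 without replicate 1 of thymic cDC2 and 3 without either splenic cDC2 array, and the cDC1 count was 2 without replicate 2 of thymic cDC1 and 1 without replicate 2 of splenic cDC1. In macrophages, Zeb1 (-1.59 ± 0.22), Id2 (-0.99 ± 0.25), Nfil3 (-1.27 ± 0.40), Klf4, Spi1 and Bcl6 were the 6 lower in the thymus. The Id2 call ended without replicate 1 of thymic macrophages (adjusted p = 0.119) or replicate 2 of splenic macrophages (0.0972), and the Nfil3 call (adjusted p = 0.0436) ended without any of the 4 macrophage arrays (0.124 to 0.203) and without either array of thymic CD103- cells (0.0509 for each), and with all arrays kept it missed after quantile normalization (0.0817) and with a trended robust prior (0.0633). Nfil3 was higher in thymic than in splenic cDC2 by 1.42 ± 0.40 (adjusted p = 0.0226), but not without replicate 1 of thymic cDC2 (0.207) or replicate 2 of splenic cDC2 (0.263). Zbtb46 was lower there with a difference of -1.06 ± 0.30 (adjusted p = 0.0193), which ended without either array of thymic cDC2 (0.0792 and 0.107) or of splenic cDC2 (0.0509 and 0.124). Prdm1 was the only member called in none of the 4 organ comparisons. The summed signal of the T cell and thymocyte markers was higher in the thymus in all 4 populations, as given above. Rag1 was at 10.02 to 11.91 in the thymic groups, against 6.83 to 7.45 in the splenic ones. Cd2 went the other way in cDC1 (9.0 in the thymus, 10.6 in the spleen) and in macrophages (8.1 and 9.8). Cd3g was below background in all 8 groups. The part of these markers in the organ differences was not tested. Whether a difference between 2 populations was itself unequal in the organs was tested for 6 pairs. The members called were 2 for CD103- minus cDC2 (3.55% of clusters), 1 for CD103- minus cDC1 (8.47%), 3 for CD103- minus macrophages (6.79%), 3 for cDC2 minus cDC1 (6.2%), 4 for cDC2 minus macrophages (10.4%) and 4 for cDC1 minus macrophages (11.7%). The count for CD103- minus cDC2 was 0 without replicate 2 of thymic cDC2 or replicate 1 of splenic cDC2 and 1 without replicate 1 of thymic or replicate 2 of splenic CD103- cells. For cDC2 minus cDC1, all members called in the main fit missed the threshold without replicate 2 of thymic cDC1 or of splenic cDC1. In the latter fit Nfil3, not called in the main fit, passed instead. Without replicate 2 of thymic cDC2, only Relb kept its call.

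**Figure D5:**
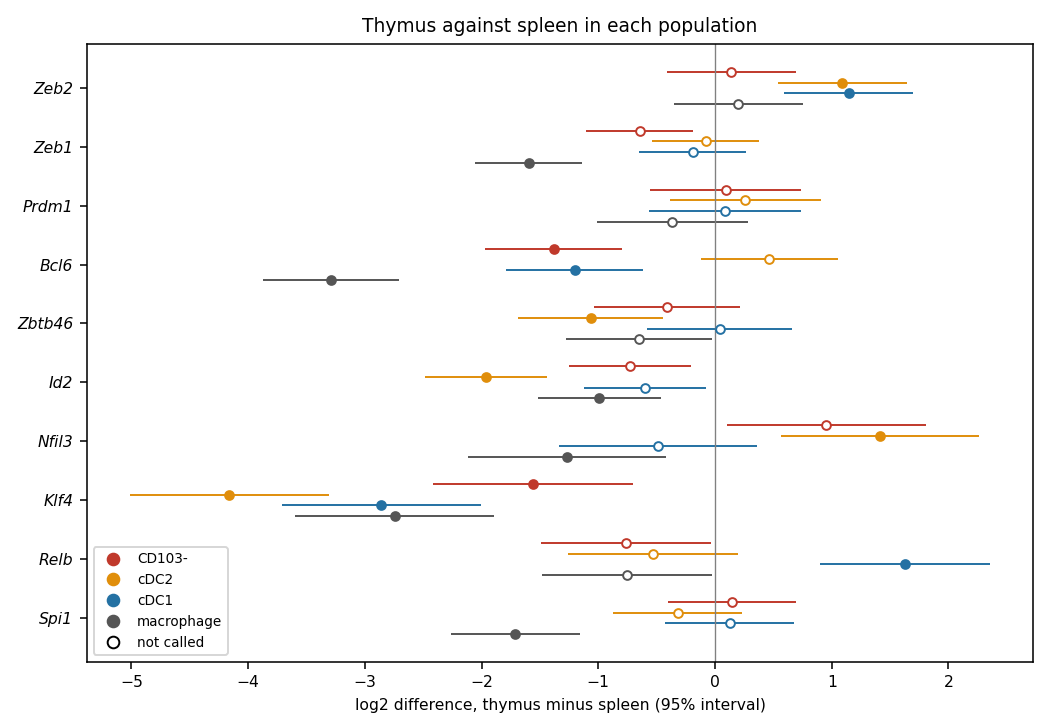
Log2 difference, thymus minus spleen, with 95% intervals for each member in the 4 populations, with filled points where the adjusted p was under 0.05. Klf4 lies left of 0 in all 4 populations (-1.56 to -4.16), and Relb lies right of 0 in cDC1 alone among the called points (1.63).

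Other transcription factors of DCs and myeloid cells gave the frame for these values. Of 27 measured, 6 exceeded and 5 fell short of the thymic cDC2 level in thymic CD103- cells by the test (5.34% and 4.91% of all clusters), and the splenic comparison gave 7 and 4 (4.81% and 4.21%). Cebpb was higher by 3.06 ± 0.35 (thymus) and 4.32 ± 0.35 (spleen), Cebpa, a driver of myeloid commitment, by 3.38 ± 0.26 and 1.48 ± 0.26, and Spic, a red pulp macrophage factor, by 4.11 ± 0.35 and 2.99 ± 0.35. Batf3, a cDC1 factor, was lower with a difference of -1.14 ± 0.25 and -0.99 ± 0.25. In thymic and splenic cDC2, Cebpb (4.76 and 5.255) and Spic (5.195 and 5.61) lay below background, so their printed differences rest on groups below it. Between cDC2 and cDC1, Irf8, which cDC1 require in mice, was lower in cDC2 with a thymic difference of -5.20 ± 0.30 and a splenic one of -5.81 ± 0.30, and Mycl with a difference of -3.19 ± 0.23 and -4.22 ± 0.23. Irf4, needed by mouse cDC2, was higher by 1.07 ± 0.27 and 4.37 ± 0.27. Among 6 growth factor receptors, Csf1r, the receptor for the macrophage growth factor CSF1, was higher in CD103- cells than in cDC2 by 1.39 ± 0.27 (thymus) and 1.14 ± 0.27 (spleen), and Csf3r by 3.39 ± 0.30 and 4.14 ± 0.30. Flt3, the receptor on which DC development depends, was lower with a difference of -2.25 ± 0.26 and -1.05 ± 0.26. Csf3r was also below background in thymic and splenic cDC2 (4.24 and 4.595), and its printed differences rest on those groups. The summed monocyte and macrophage marker signals given above were also higher in CD103- cells than in cDC2 in both organs. Lyz2 had the highest signal of the monocyte list in these groups. Some markers went the other way. Cd163 was at 8.05 in thymic CD103- cells, against 11.34 in thymic cDC2. Vcam1 was at 12.9 in splenic CD103- cells, against 14.1 in splenic cDC2. The part of the monocyte and macrophage markers in these differences was not tested.

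Clusters whose 8 group means were among the 3 that followed a member most closely, among 10466 with 1 symbol and a span of at least 1 log2 unit, are given as a description with no test. For Zeb2 these included Pgs1 and Fry (Pearson r = 0.98 and 0.977 over 8 group means), and for Prdm1 they were Il1a, Fam43a and LOC690190 (0.979, 0.969 and 0.967). Relb was followed by Cd70, Traf1 and Kdm4c (0.984, 0.983 and 0.978), Zeb1 by Atrx, Tek and Setd8 (0.995, 0.991 and 0.988), and Zbtb46 by Cbfa2t3, Zbtb6 and C2cd5 (0.994, 0.992 and 0.992). Bcl6 was followed by Psat1, Kctd9 and Nepro (0.96, 0.954 and 0.951), Id2 by Amica1, Odc1 and Prr5l (0.987, 0.972 and 0.96), and Klf4 by Sts, Stk10 and Zdhhc18 (0.98, 0.968 and 0.955). Spi1 was followed by Lcn8, Rhd and Tcf21 (0.98, 0.967 and 0.967) and Nfil3 by Rreb1, Lpar4 and Arhgap21 (0.939, 0.936 and 0.914). High values were common for the factors that separate DCs from macrophages: 775 clusters passed 0.9 with Zbtb46 and 690 with Zeb1, against 59 with Zeb2 and 23 with Prdm1.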

How the data were processed

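RNA of sorted rat thymic and splenic cells was measured on 16 Clariom S arrays, and the authors' deposited log2 values (2 decimals) were used as given. Transcriptome Analysis Console is named in the submitters' processing notes, and for its version, background correction and normalization the sources used here give nothing. Both deposited tables held identical values, and array medians were 5.87 to 5.95. Groups came from the labels. With limma 3.58.1 in R 4.3.3, all 23188 clusters were fitted with a mean for each of 8 groups (eBayes, 8 residual and 9.21 prior degrees of freedom). Benjamini-Hochberg adjustment ran over all clusters within each of 22 contrasts, and an adjusted p under 0.05 counted as called. Of the 6 interactions between organs, 4 were added after seeing the data, as was the immediate early list. The model was tested on simulated data for some of the contrasts. It found 0% to 1.2% of changes of 0.5 log2 units, 25.6% to 32% of those of 1 and 88.4% to 93.2% of those of 2. Fewer clusters were changed there than were called in the data, so the shares found may differ. A difference that was not called is therefore not shown to be absent. With 2 arrays a group, the number of arrays limits the precision. The members and lists were chosen with earlier results of these data known. Named genes were the members, up to 4 called genes per direction of a list with the largest differences, the 3 most alike genes per member, and the sort markers. Some genes that this rule picks are not reported here. Where a gene qualified in 1 organ its value in the other is given too. Tnfrsf17, Xbp1, Siglech, Bst2, Ccr9, Spib, Rag1, Cd2, Cd3g, Vcam1, Lyz2 and the value of Nfkb2 were chosen after their values were seen. The same holds for the values of Irf4 in CD103- cells, Prdm16 group means and Tnfrsf11a outside cDC1.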

Additional observations from a re-analysis of the deposited data

Results flagged for a closer look

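The difference between 2 populations was itself compared between thymus and spleen for each of 6 pairs, and 17 of these interactions among the members passed (limma, adjusted p under 0.05). The pairs share groups, so the interactions of a member are not independent. Each value is the thymic difference minus the splenic one, in log2 units. For CD103- minus cDC2, 2 members passed (3.55% of all clusters called), Klf4 at 2.60 ± 0.57 and Bcl6 at -1.85 ± 0.39. Klf4 was 1.61 above cDC2 in thymic CD103- cells and -0.98 from cDC2 in splenic ones. For CD103- minus cDC1, Relb alone passed, at -2.39 ± 0.49 (8.47% of clusters called). For cDC2 minus cDC1, Bcl6 was at 1.67 ± 0.39, Id2 at -1.36 ± 0.35 and Relb at -2.16 ± 0.49 (6.2% of clusters called). All 3 of these, and both for CD103- minus cDC2, missed the threshold in at least 2 of the 16 fits that left out an array, and Id2 also did with those groups fitted alone (adjusted p = 0.0652).

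The other interactions involved macrophages, whose markers of neutrophils and, in the spleen, erythroid and B cells are given above and whose part was not tested. For CD103- minus macrophages, Nfil3 was at 2.23 ± 0.57, Spi1 at 1.86 ± 0.37 and Bcl6 at 1.91 ± 0.39 (6.79% of clusters called). For cDC2 minus macrophages, Zeb1 was at 1.52 ± 0.31, Nfil3 at 2.69 ± 0.57, Spi1 at 1.39 ± 0.37 and Bcl6 at 3.76 ± 0.39 (10.4%). For cDC1 minus macrophages, Zeb1 was at 1.41 ± 0.31, Spi1 at 1.84 ± 0.37, Bcl6 at 2.09 ± 0.39 and Relb at 2.39 ± 0.49 (11.7%). Nfil3 for CD103- minus macrophages missed the threshold in 6 of the 16 fits that left out an array (adjusted p up to 0.102), and Spi1 for cDC2 minus macrophages in 4 of them (up to 0.113). Splenic macrophages had the highest Spi1 of all groups, and thymic macrophages the lowest Bcl6.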

How the results depend on the processing

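No difference called among the members changed sign under any alternative tried, while some that were not called did when an array was left out, such as Zbtb46 in thymic cDC2 minus cDC1 (-0.67 to 0.31). Over 8 settings that kept all arrays, 1718 of 1760 tests stayed on their side of the threshold, 11 calls were lost and 31 gained, and over 16 fits that each left out an array, 3386 of 3520 stayed, 105 were lost and 29 gained. In those fits the lone array of a group was assumed to vary like the other groups. Of 432 recomputed counts of members called, 411 were within 1.5 times of the reported count. With only clusters above the median mean, the count for thymic minus splenic CD103- cells was 4 against 2. Leaving out an array gave 4 to 7 for thymic CD103- minus cDC2, 2 to 5 for thymic cDC2 minus cDC1, 3 to 6 for splenic cDC2 minus cDC1, 1 to 3 for thymic minus splenic CD103- cells, 2 to 5 for cDC2 and 1 to 4 for cDC1 between organs, 0 to 3 for the interaction of CD103- minus cDC2 and 0 to 4 for that of cDC2 minus cDC1. The interaction of CD103- minus cDC2 lost both calls without replicate 2 of thymic cDC2 or replicate 1 of splenic cDC2. That of cDC2 minus cDC1 lost all its main calls without replicate 2 of thymic cDC1 or of splenic cDC1. The cause was not tested beyond the loss of an array.

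The labels do not say that replicate numbers pair the arrays. Of 28 pairs of groups, 4 had same-numbered deviations correlated over 0.1 (range -0.068 to 0.182). These were all 3 pairs of splenic DC groups, and thymic CD103- cells with thymic cDC2. Nfil3 and Klf4 read higher in replicate 1 than in replicate 2 in every DC group, and lower in both macrophage groups. The main fit took no pairing because the labels give none. The source of this offset was not tested. With the replicate block, 213 of 220 tests stayed, none was lost and 7 were gained, 6 of them for Nfil3, among them splenic CD103- minus cDC2 (1.22, adjusted p = 0.0157) and splenic cDC2 minus macrophages (adjusted p = 0.0134), and 1 for Bcl6, thymic cDC2 minus cDC1 (-0.85, adjusted p = 0.0467). The median of all clusters differed between DCs and macrophages by 0.095 to 0.195, so differences from macrophages are relative to that shift. Values near the background of 5.73, such as Prdm1 in cDC1 and Zeb1 and Zbtb46 in thymic macrophages, limit how large a difference the arrays can show.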
